A study of Mus musculus with 12 samples.

Results

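The genes described here code for proteins of the cardiac Z-disc. They were chosen by symbol as 10 of the 23337 genes in the count tables: the Z-disc anchors Actn2, Tcap, Csrp3, Myoz2 and Nebl, and the PDZ-LIM genes Ldb3, Pdlim1, Pdlim3, Pdlim5 and Pdlim7. RNA was sequenced from mouse cardiomyocytes (CMs) in 4 groups of 3 hearts each. Every mouse carried a fluorescent reporter that Cre switches on and was injected with AAV9-cTNT-Cre, a virus in which the cardiac troponin T promoter drives Cre in CMs. Knockout (KO) mice were Srf-flox/flox, with both copies of Srf (serum response factor) open to deletion. Control (CTRL) mice were Srf-flox/+, so their sorted CMs had also met Cre and kept 1 intact copy. Neonatal mice were injected on postnatal day (P) 1 and their CMs isolated on P14. Adult mice were injected on P60, and isolation followed on P90. The dose was low, so that only scattered CMs of a heart expressed Cre, and reporter-positive CMs were sorted by flow cytometry.

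The Z-disc is the border between neighbouring sarcomeres, where actin filaments of opposite polarity are held together by alpha-actinin and the ends of titin are anchored. PDZ-LIM proteins bind alpha-actinin through a PDZ domain and carry one or several LIM domains, zinc-binding folds that recruit other proteins. Ldb3, Pdlim5 and Pdlim7 belong to the enigma type with several LIM domains, while Pdlim1 and Pdlim3 belong to the ALP type with a single one. SRF is a transcription factor that binds the CArG box, a 10-base element, and is known for its role in the transcription of sarcomere and cytoskeleton genes in muscle.

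In mm10, each gene's counted exons lay as follows. Actn2 spans chr13:12269427-12340732 on the minus strand with 21 exons, Tcap spans chr11:98383811-98384953 on the plus strand with 2 exons, and Csrp3 spans chr7:48830398-48848051 on the minus strand with 7 exons. Myoz2 lies at chr3:123006206-123034987 on the minus strand with 6 exons, and Nebl lies at chr2:17346734-17731068 on the minus strand. Of the PDZ-LIM genes, Ldb3 spans chr14:34526699-34588681, Pdlim1 chr19:40222239-40271616, Pdlim5 chr3:142239585-142395696 and Pdlim7 chr13:55497487-55513439, all on the minus strand, and Pdlim3 spans chr8:45885485-45919546 on the plus strand. None of the 10 genes shared exon positions with another gene of the tables. The exons counted for Nebl covered 810 of the 3426 coding bases that GENCODE vM21 gives the gene, or 23.6%. Its values therefore describe those 7 exons, not the whole of the nebulette coding sequence. The share was 74.1% for Pdlim3, 85.1% for Pdlim7 and 98.6% for Pdlim5, and it was 100% for the other 6 genes.

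Because SRF acts through CArG boxes, the sequence before the start site was read for the members. RefSeq (GRCm38.p6, the assembly behind mm10) gave 300-base windows, from 250 bases before to 50 bases after each start, for 9 of the 10 genes, in 15 windows. An exact CArG box occurred in 3 windows of 2 genes, Ldb3 and Nebl, against 535 of all 32851 windows in the RefSeq table (1.63%). The 2 windows of Ldb3 start 74 bases apart and overlap, and the same box was counted in both. The Nebl box lay in the window of a start 268212 bases from the 5' end of the counted gene. With up to 1 mismatch allowed, 5 windows of 4 genes held one, adding Csrp3 and Pdlim3, against 21.1% of all windows. The search reads both strands, since the element is its own reverse complement. The 250 bases before the start are shown, 5' to 3' on the gene's strand, for the 4 genes that passed the test after Srf deletion (Csrp3, Pdlim1, Pdlim7 and Myoz2) and for Ldb3, whose window held the exact box near the start. Capitals mark a CArG box, exact in Ldb3 at position -35 from the start, and with 1 mismatch in Csrp3 at position -110. The windows are chr7:48848052-48848301 for Csrp3, chr19:40271617-40271866 for Pdlim1, chr13:55513447-55513696 for Pdlim7, chr3:123034988-123035237 for Myoz2 and chr14:34588682-34588931 for Ldb3, all on the minus strand.
Csrp3: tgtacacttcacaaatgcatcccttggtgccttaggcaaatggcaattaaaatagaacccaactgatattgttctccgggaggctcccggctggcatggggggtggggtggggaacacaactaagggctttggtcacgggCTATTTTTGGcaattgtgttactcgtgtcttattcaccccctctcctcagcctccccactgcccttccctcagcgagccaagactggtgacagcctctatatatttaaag
Pdlim1: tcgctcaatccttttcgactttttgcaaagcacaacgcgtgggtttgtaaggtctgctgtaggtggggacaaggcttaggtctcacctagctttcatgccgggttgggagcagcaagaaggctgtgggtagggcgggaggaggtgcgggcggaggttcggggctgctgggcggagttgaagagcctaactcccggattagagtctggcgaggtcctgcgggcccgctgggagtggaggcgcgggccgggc
Pdlim7: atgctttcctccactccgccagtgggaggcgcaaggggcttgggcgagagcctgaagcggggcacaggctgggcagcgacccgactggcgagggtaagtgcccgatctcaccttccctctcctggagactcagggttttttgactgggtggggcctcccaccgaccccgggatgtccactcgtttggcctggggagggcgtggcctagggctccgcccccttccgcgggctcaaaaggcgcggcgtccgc
Myoz2: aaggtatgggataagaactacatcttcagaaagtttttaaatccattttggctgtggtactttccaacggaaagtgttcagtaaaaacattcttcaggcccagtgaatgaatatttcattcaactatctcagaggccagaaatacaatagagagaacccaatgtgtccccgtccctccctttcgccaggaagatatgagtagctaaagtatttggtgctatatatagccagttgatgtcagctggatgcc
Ldb3: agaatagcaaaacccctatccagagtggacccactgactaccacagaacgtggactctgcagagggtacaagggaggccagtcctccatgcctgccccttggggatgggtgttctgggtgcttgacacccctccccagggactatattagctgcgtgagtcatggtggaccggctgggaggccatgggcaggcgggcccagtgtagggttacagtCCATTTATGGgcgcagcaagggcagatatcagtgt
The windows of Pdlim1, Pdlim7 and Myoz2 held no such letters, exact or with 1 mismatch. This says nothing of elements outside these windows.

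The libraries held 9740389 to 23103460 counts, and the 10 genes were counted well above the level of a few reads, from 92 (Pdlim3) to 135204 (Actn2) counts in a library. Levels are given in CPM, the usual count scaled to the depth of the library, with TMM factors over the 12 libraries. In sorted bulk samples, fewer cells with a transcript and less of it per cell cannot be told apart. Srf, the targeted gene, was at 63.9, 57.1 and 49.4 CPM in the P14 CTRL libraries and at 32.1, 27.5 and 9.74 CPM in the P14 KO libraries. At P90 it was at 71.1, 59.1 and 81.1 CPM in CTRL and at 32.8, 28.9 and 28.1 CPM in KO. Every KO library was below every CTRL library of its stage, with KO means of 40.7% and 42.5% of CTRL, and the fall passed the test at P90 (log2 fold change -1.23 ± 0.13 SE, edgeR quasi-likelihood test, adjusted p = 0.00347) but not at P14 (-1.30 ± 0.36 SE, adjusted p = 0.0628). The P14 value was called in 6 of 13 alternative fits. Among them were DESeq2 (adjusted p = 0.00224) and edgeR without P14 KO replicate 3, the library with the least Srf (adjusted p = 0.0474). The count takes in all exons of Srf, including those that Cre leaves in place. The 5 CM markers summed to 74264.5 to 82289.4 CPM in P14 CTRL and 51583.0 to 56306.7 CPM in P14 KO, and to 76383.5 to 83746.1 and 64866.9 to 68334.8 CPM at P90. Most of each sum was Myh6, at 57567, 46962 and 62538 CPM in P14 CTRL and at 38337, 31806 and 36321 CPM in P14 KO. The study's authors describe Myh6 as a direct target of Srf. The other CM markers overlapped between CTRL and KO at P14. At P90, Tnnt2 was higher in each KO library than in each CTRL library. Myh6 and Ryr2 were lower, and Pln and Myl2 overlapped. Markers of other cells were summed over each list. Atrial markers (4 genes) took 56.7 to 502 CPM in P14 CTRL and 304 to 1180 CPM in P14 KO, against 194 to 324 and 144 to 643 CPM at P90. Most of these sums was Nppa, which is also a marker of cardiac stress, at 497, 250 and 52.4 CPM in P14 CTRL and at 712, 1159 and 296 CPM in P14 KO, while Myl7, Sln and Myl4 were each at most 24.1 CPM at P14. In P14 KO replicate 3, Sln was at 0. The study's authors count Myl7 and Myl4 among the immature myofibrillar isoforms and report them as higher in neonatal Srf KO. In the same order of groups, endothelial markers (5 genes) took 149 to 327, 202 to 300, 144 to 197 and 141 to 226 CPM, and fibroblast markers (5 genes) took 84.5 to 241, 139 to 260, 40.6 to 56.6 and 41.5 to 55.6 CPM. Mural markers (5 genes) took 392 to 527, 327 to 417, 514 to 643 and 381 to 489 CPM, and the 4 macrophage markers found took at most 6.84 CPM. Most of the mural sums was Abcc9, at 424, 346 and 383 CPM in P14 CTRL and 328, 253 and 267 CPM in P14 KO. At P90 it was at 551, 566 and 462 CPM in CTRL and 330, 418 and 394 CPM in KO. The other mural markers were each at most 52 CPM in a library, so the sums mainly follow Abcc9. Whether Abcc9 came from mural cells or from CMs was not tested. Myh11, Rgs5 and Pdgfrb overlapped between CTRL and KO at both stages, while Kcnj8 overlapped at P14 and was higher in KO at P90. No marker was at 0 throughout a group. Of these lists, 1 of 4 atrial genes was called higher and 1 of 5 CM genes lower in P14 KO, and none was called at P90. Their part in the results below was not tested. Y-linked transcripts were present in 1 of 3 libraries of each group but P90 KO, where they were in 0 of 3.

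Per kilobase of counted exon (RPKM), the members spanned a wide range of levels. In P14 CTRL, Csrp3 was highest at a mean of 1849 RPKM, followed by Actn2 at 1801, Tcap at 1183 and Myoz2 at 784 RPKM. These ranked 32, 35, 52 and 89 among the 23337 genes. Ldb3 (276 RPKM) and Pdlim5 (128 RPKM) came next, then Pdlim1 (57.4 RPKM) and Nebl (44.3 RPKM), with Pdlim7 (18.8 RPKM) and Pdlim3 (15.8 RPKM) lowest. The order in P90 CTRL was nearly the same, with Tcap (1800 RPKM) above Actn2 (1494 RPKM) and Nebl (41.9 RPKM) above Pdlim1 (40.9 RPKM). In P14 KO, Pdlim7 was placed below Pdlim3, at 7.08 against 9.44 RPKM, and Csrp3 reached rank 11 of all genes. In P90 KO, Tcap led the members at 2795 RPKM, ahead of Csrp3 at 2410 RPKM.

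**Figure D1:**
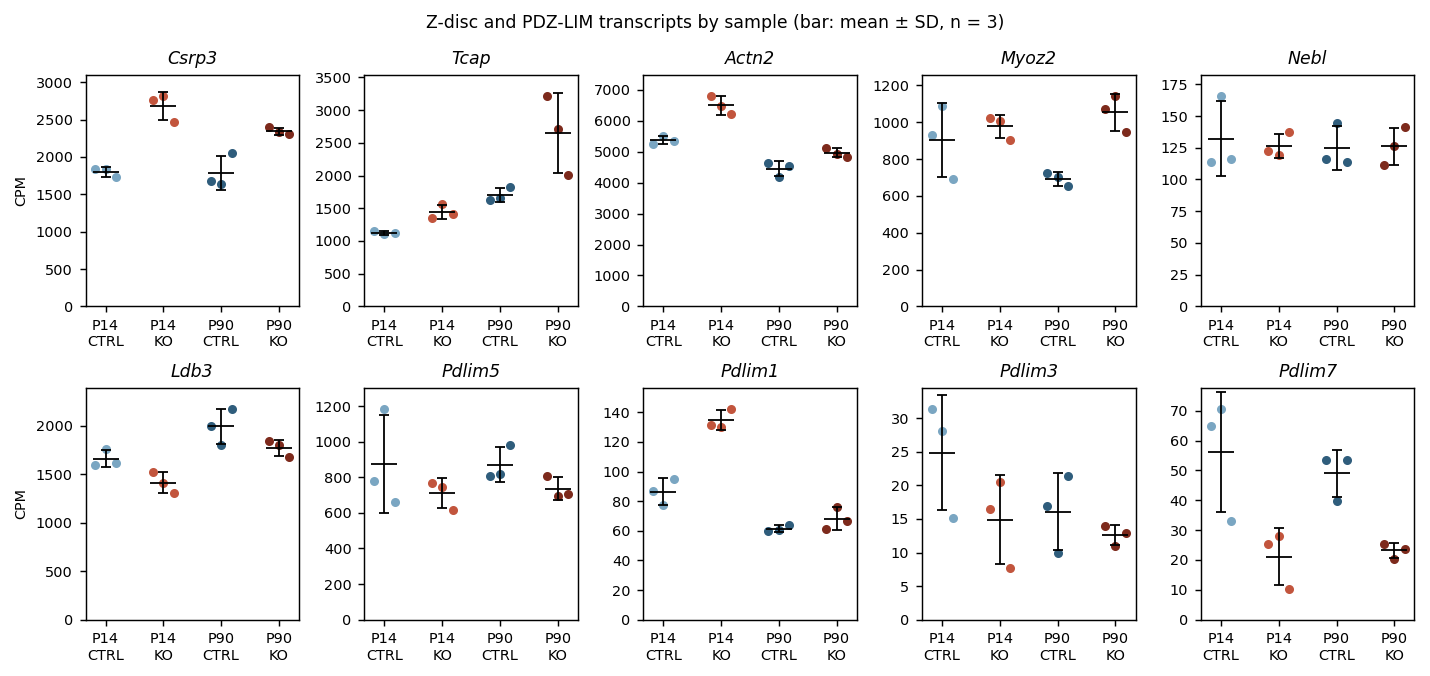
Levels of the 10 genes in CPM (y axis, from 0 in each panel) in the 3 libraries of each group (points), with the mean and SD as bars. Csrp3 was higher in every KO library than in the CTRL libraries of its stage, and Pdlim7 was lower.

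The first comparison asked how the members responded to Srf deletion from birth. In neonatal KO CMs, transcripts of 2 adaptors rose: Csrp3, the muscle LIM protein that docks on the Z-disc, and Pdlim1, a widely expressed ALP-type gene, reached 1.49 and 1.55 times CTRL. The lowest value relative to CTRL was that of Pdlim7, also called enigma, at 37.6% of CTRL, but its spread between libraries was wide and it did not pass the main test. Thus 2 of the 10 members were called higher and 0 lower, where 8.59% of all 12546 genes tested were called (3.99% higher and 4.60% lower). The signs were even, 5 members above and 5 below CTRL, and their median log2 fold change was 0.02, against 0.00 for all genes. KO and CTRL libraries did not overlap for 6 members, 4 higher and 2 lower, where 32.7% of all genes did not overlap (16.0% higher and 16.7% lower). DESeq2, which called 14.0% of the genes it tested, called 4 members: Csrp3, Tcap and Pdlim1 higher and Pdlim7 lower.

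Among the anchors, Csrp3 was at 1837.5, 1833 and 1726 CPM in P14 CTRL and at 2761, 2821 and 2473 CPM in P14 KO. Each KO library lay above each CTRL library, with means of 1799 ± 62.9 and 2685 ± 186 CPM (SD, n = 3). The log2 fold change was 0.57 ± 0.11 SE (edgeR, adjusted p = 0.0222). Actn2, the alpha-actinin that cross-links actin at the Z-disc, was at 5260.4, 5521.5 and 5337 CPM in CTRL and at 6817, 6465 and 6219 CPM in KO. Its groups were apart as well, yet the log2 difference of 0.27 ± 0.11 SE did not pass after adjustment (edgeR, adjusted p = 0.182). Tcap, or telethonin, which caps the titin ends, was at 1147, 1102 and 1115 CPM in CTRL and at 1344, 1560.1 and 1411 CPM in KO. It too did not overlap, and its log2 difference of 0.36 ± 0.11 SE missed the threshold with edgeR (adjusted p = 0.0809) and passed it with DESeq2 (adjusted p = 0.0205). Myoz2, a calsarcin that tethers calcineurin to alpha-actinin, gave overlapping groups of 904 ± 200 CPM in CTRL and 977 ± 64.6 CPM in KO (SD, n = 3). The log2 difference was 0.11, with a 95% interval from -0.28 to 0.49. Nebl, a nebulin relative that links actin to the Z-disc, likewise overlapped at 132 ± 29.6 and 126 ± 9.57 CPM, with an interval from -0.44 to 0.31 on the log2 scale.

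Among the PDZ-LIM genes, Pdlim1 was at 86.9, 77.2 and 95.2 CPM in P14 CTRL and at 131, 130.2 and 142 CPM in P14 KO. All KO libraries were above all CTRL libraries, and the rise of 0.64 ± 0.11 SE on the log2 scale was called (edgeR, adjusted p = 0.0168). Pdlim7 was at 64.8, 70.6 and 33.2 CPM in CTRL and at 25.3, 28.0 and 10.2 CPM in KO. Its groups did not overlap, and replicate 3 was the lowest library in each group. The log2 difference of -1.42 ± 0.39 SE was not called by edgeR (adjusted p = 0.0616) and was called by DESeq2 (adjusted p = 0.00151). Leaving out P14 CTRL replicate 3 brought edgeR to -1.68 (adjusted p = 0.0388). Ldb3, the gene of Cypher or ZASP and the most abundant of the family in heart, was at 1599, 1762 and 1619 CPM in CTRL and at 1520, 1413 and 1304 CPM in KO. Here too no library overlapped, and the log2 difference was small, at -0.24 ± 0.11 SE (edgeR, adjusted p = 0.241). Pdlim3, the actinin-associated LIM protein, was at 31.4, 28.1 and 15.1 CPM in CTRL and at 16.5, 20.6 and 7.62 CPM in KO, with overlap and a log2 difference of -0.75 ± 0.37 SE (edgeR, adjusted p = 0.251). Leaving out 1 library moved the Pdlim3 value to between -1.03 (without P14 KO replicate 2) and -0.41 (without P14 KO replicate 3), with no call. Pdlim5, the enigma homolog, overlapped at 874 ± 274 and 712 ± 82.5 CPM (SD, n = 3), with a 95% interval from -0.79 to 0.19 on the log2 scale. The Pdlim5 log2 difference was -0.30, and -0.02 without P14 CTRL replicate 2, the library with the most Pdlim5.

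Both neonatal calls rested on all 3 KO libraries. Leaving out any 1 of them left 0 members called, with adjusted p-values of 0.0524 to 0.1 for Csrp3 and 0.0578 to 0.0766 for Pdlim1, and with 111 to 202 genes called in all. Csrp3 was also lost without P14 CTRL replicate 3 (adjusted p = 0.0682).

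**Figure D2:**
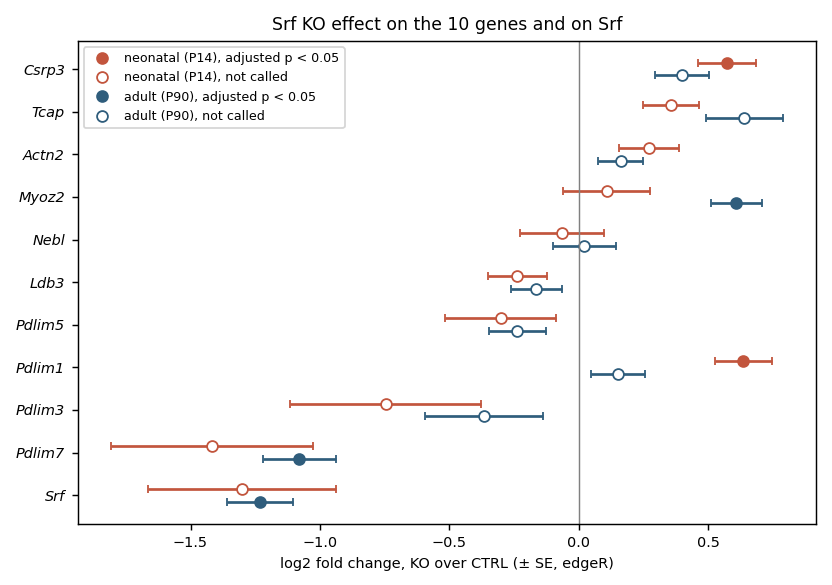
Log2 fold change of KO over CTRL (x axis, bars ± SE, edgeR) for the 10 genes and Srf in neonatal and adult CMs, with filled points for an adjusted p under 0.05. Pdlim7 lay near Srf at both stages, at -1.42 and -1.08, while Myoz2 was called in the adult comparison and Csrp3 and Pdlim1 in the neonatal one.

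The second comparison addressed deletion in the grown heart. In adult KO CMs, Pdlim7 fell to 47.4% of CTRL and Myoz2 rose to 1.52 times CTRL, and these were the 2 of 10 members called, where 0.390% of the 11808 genes tested were called (46 genes, 0.237% higher and 0.152% lower). The anchors Tcap, Csrp3 and Actn2 were higher in each KO library than in each CTRL library without passing edgeR's test. In all 6 members had positive and 4 negative log2 differences, with a median of 0.09 against 0.01 for all genes. Groups were apart for 5 members, 4 higher and 1 lower, where 21.6% of all genes did not overlap (10.4% higher and 11.2% lower). DESeq2, which called 2.87% of the genes it tested, called 4 members: Csrp3, Tcap and Myoz2 higher and Pdlim7 lower.

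Pdlim7 was at 53.7, 39.9 and 53.5 CPM in P90 CTRL and at 25.5, 20.5 and 23.8 CPM in P90 KO. The KO libraries lay close together and all under the lowest CTRL library, and the log2 fold change was -1.08 ± 0.14 SE (edgeR, adjusted p = 0.00855). Myoz2 was at 726, 702 and 653 CPM in CTRL and at 1071, 1144 and 947 CPM in KO. Again all KO libraries stood above CTRL, by 0.61 ± 0.10 SE on the log2 scale (edgeR, adjusted p = 0.0314). Tcap was at 1633, 1654 and 1832 CPM in CTRL and at 3221, 2717 and 2010 CPM in KO. The KO mean was 155% of CTRL, the highest ratio among the members at P90, and the KO libraries spread widely (SD 609 CPM, n = 3), and its log2 difference of 0.64 ± 0.15 SE was not called by edgeR (adjusted p = 0.0888) but was by DESeq2 (adjusted p = 0.00238) and by edgeR without P90 KO replicate 3 (adjusted p = 0.0189). Csrp3 was at 1672, 1632 and 2047 CPM in CTRL and at 2400.5, 2327.5 and 2307 CPM in KO. It was higher in each KO library by a log2 difference of 0.40 ± 0.10 SE, which edgeR did not call (adjusted p = 0.121) and DESeq2 did (adjusted p = 0.0228). With the gene length correction the Csrp3 value was 0.23 (edgeR, adjusted p = 0.331). The Tcap value was then 0.44 (edgeR, adjusted p = 0.097). Those of Myoz2 and Pdlim7 were 0.46 and -1.09, both still called (edgeR, adjusted p = 0.0335 and 0.00775). Actn2 was at 4633, 4182 and 4555 CPM in CTRL and at 5133, 4929 and 4846 CPM in KO, with a log2 difference of 0.16 ± 0.09 SE (edgeR, adjusted p = 0.382).

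The other members overlapped between the adult groups. Means in CTRL and KO were 1994 ± 184 and 1774.5 ± 81.9 CPM for Ldb3, 871 ± 97.2 and 736 ± 63.5 CPM for Pdlim5, 61.6 ± 2.12 and 68.0 ± 7.80 CPM for Pdlim1, 16.1 ± 5.72 and 12.6 ± 1.5 CPM for Pdlim3, and 125 ± 17.4 and 126 ± 14.8 CPM for Nebl (SD, n = 3). Pdlim1, which rose in neonatal KO, had an adult log2 difference of 0.15 with a 95% interval from -0.08 to 0.38. For Nebl the interval was -0.25 to 0.29. The adult log2 differences of Ldb3 and Pdlim5 were -0.16 and -0.24, and with the gene length correction they were -0.02 and -0.06, and that of Pdlim1 was 0.05.

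The adult calls also depended on single libraries. Without P90 CTRL replicate 3 or without P90 KO replicate 2, 0 members were called. Pdlim7 then had log2 fold changes of -1.01 and -0.99 (adjusted p = 0.0642 and 0.0594) and Myoz2 of 0.57 and 0.55 (adjusted p = 0.148 and 0.206), while 16 and 6 genes were called in all. P90 CTRL replicate 3 was the one adult library with Y-linked transcripts. Without P90 CTRL replicate 1 or 2 or P90 KO replicate 1, Pdlim7 was called and Myoz2 was not (adjusted p = 0.0560, 0.0783 and 0.0596). In the fit of all 12 samples, 0 members were called in the adult comparison, and 3 genes in all.

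The third comparison asked whether the response differed between stages, as the neonatal minus the adult log2 fold change in 1 fit of the 12 samples. Injection and isolation were on P1 and P14 in neonatal mice and on P60 and P90 in adult mice. Stage and the time since injection therefore cannot be told apart here. By edgeR 0 of 10 members passed, where 1.78% of 12841 genes did. At an unadjusted p under 0.05 there were 2, Pdlim1 and Myoz2, against 19.0% of all genes, and DESeq2 called 1, Pdlim1, where it called 8.78% of the genes it tested. Pdlim1 was higher by 0.49 ± 0.15 SE in the neonatal response (edgeR, adjusted p = 0.103, and DESeq2, adjusted p = 0.0447). For Myoz2 the difference was -0.49 ± 0.20 SE, in the adult direction (edgeR, adjusted p = 0.206). So by edgeR the neonatal calls of Csrp3 and Pdlim1 and the adult calls of Pdlim7 and Myoz2 were not shown to belong to one stage. The difference was 0.18 for Csrp3, with a 95% interval from -0.13 to 0.50, and -0.33 for Pdlim7, from -1.31 to 0.65. Without P14 KO replicate 3 the Pdlim7 difference was -0.01, and without P14 KO replicate 2 it was -0.59. For Tcap it was -0.28, from -0.70 to 0.15, and it turned to 0.06 when each library was corrected for a trend with gene length, Tcap being the shortest of the 10 at 948 counted bases. With the same correction the difference became 0.49 for Csrp3 (edgeR, adjusted p = 0.123) and -0.23 for Myoz2 (adjusted p = 0.564).

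Pdlim7 and Srf took similar values across libraries. Relative to the CTRL mean of its stage, Pdlim7 was at 115%, 126% and 59.0% in the P14 CTRL libraries and at 44.9%, 49.9% and 18.1% in P14 KO, while Srf was at 112.5%, 100.5% and 87.0% and at 56.4%, 48.4% and 17.2%. P14 KO replicate 3 had the least of both. At P90, Pdlim7 in KO was at 52.0%, 41.8% and 48.5% and Srf at 46.6%, 41.0% and 39.9%. Pdlim3 and Pdlim5 were also lowest in replicate 3 of both P14 groups, at 60.9% and 75.7% in CTRL and at 30.7% and 70.6% in KO, and Pdlim3 overlapped between CTRL and KO at both stages. Csrp3 and Myoz2 were lowest in replicate 3 of both P14 groups as well, at 96.0% and 76.6% in CTRL. In P14 KO replicate 3 they were at 137.5% and 99.9%. Over the 12 samples with each stage's mean removed, Pearson's r with Srf on the log2(CPM + 1) scale was 0.958 for Pdlim7, 0.882 for Ldb3, 0.794 for Pdlim3 and 0.646 for Pdlim5. It was -0.772 for Pdlim1, -0.700 for Csrp3, -0.654 for Actn2, -0.649 for Tcap, -0.460 for Myoz2 and -0.157 for Nebl. These values are descriptive, since the points share the difference between KO and CTRL and the 2 genes of a pair come from the same library.

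**Figure D3:**
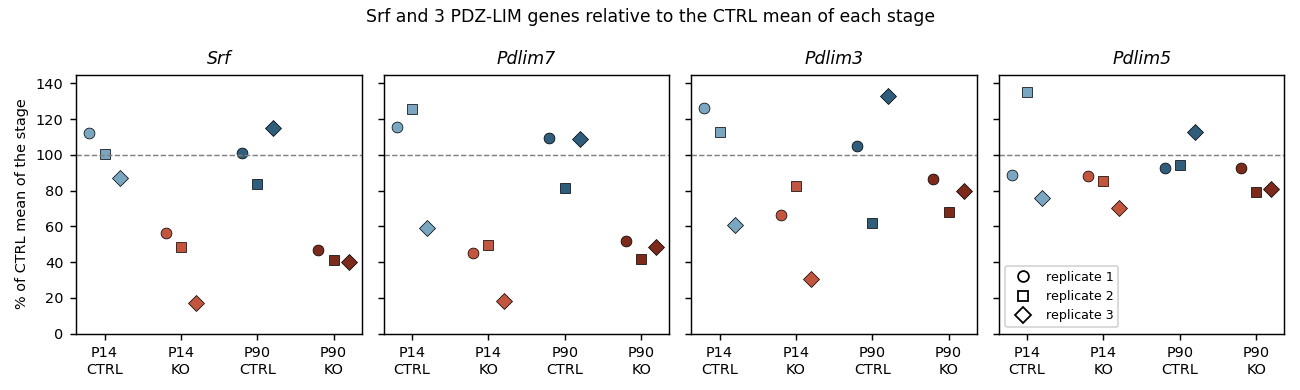
Srf, Pdlim7, Pdlim3 and Pdlim5 as a percentage of the CTRL mean of the same stage (y axis) in each library, with a symbol for each replicate number and a dashed line at 100%. In P14 KO replicate 3, Srf and Pdlim7 were at 17.2% and 18.1%, below every other library.

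By the same measure, among 9466 genes with a mean of at least 5 CPM, the genes nearest in pattern to Pdlim7 were Prodh (r = 0.980) and Fbxl22 (r = 0.959). Prodh was also nearest to Pdlim3 (r = 0.913), followed by AI464131 (r = 0.909). Csrp3 was nearest to Tnip1 (r = 0.970) and Mob3a (r = 0.952), Pdlim1 to Gosr2 (r = 0.968) and Ormdl3 (r = 0.960), and Myoz2 to Dph3 (r = 0.959) and S100a13 (r = 0.950). Actn2 was nearest to Fbln1 (r = 0.941) and Prkcsh (r = 0.940), Pdlim5 to Asb11 (r = 0.938) and Phospho2 (r = 0.937), and Nebl to Tpd52 (r = 0.938) and Wdr43 (r = 0.908). Ldb3 was nearest to Slc16a10 (r = 0.926) and Dffa (r = 0.921), and Tcap to Pole3 (r = 0.920) and Gnas (r = 0.919). Between members, the highest values were 0.931 for Csrp3 with Actn2, 0.874 for Pdlim3 with Pdlim7 and 0.856 for Ldb3 with Pdlim7. Pdlim1 ran against its relatives, at -0.839 with Pdlim7 and -0.722 with Ldb3.

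The PDZ-LIM family was then taken as a whole, with Pdlim2 and Pdlim4 added to the 5 members. The 7 genes summed to 519 ± 56.1 RPKM in P14 CTRL and 461 ± 29.9 RPKM in P14 KO, and to 547 ± 52.3 and 485 ± 24.9 RPKM at P90 (SD, n = 3). Ldb3 made up 53.4 ± 3.25% of the sum in P14 CTRL and 60.6 ± 0.668% in P90 CTRL, and Pdlim5 made up 24.4% and 23.4%. Together these enigma-type genes were most of the family in every group. Pdlim1 took 11.2 ± 2.28% in P14 CTRL and 19.5 ± 2.26% in P14 KO, against 7.51 ± 0.529% and 9.35 ± 1.26% at P90. Pdlim7 took 3.58 ± 1.08% and 1.51 ± 0.633% at P14, and 2.99 ± 0.318% and 1.61 ± 0.175% at P90. Pdlim2 was nearly absent, at 0.403 to 1.26 CPM in the group means.

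**Figure D4:**
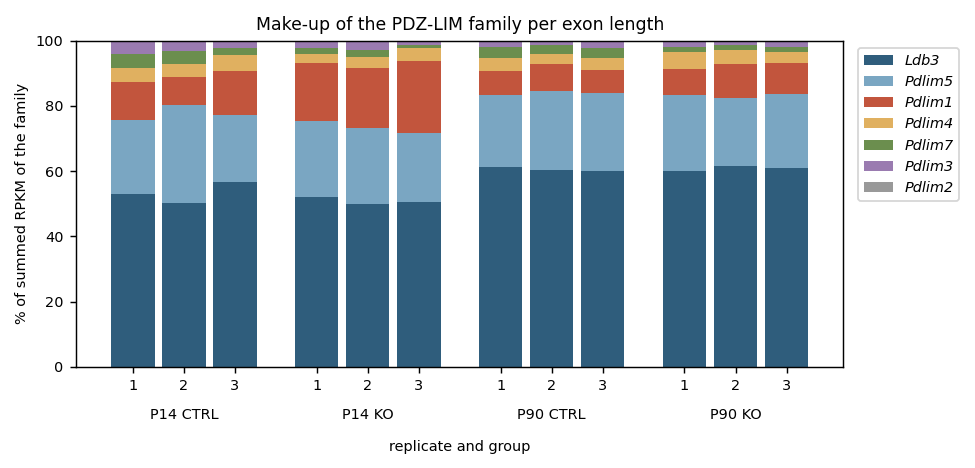
Percentage of the summed RPKM of the 7 PDZ-LIM genes taken by each gene (y axis, stacked bars) in each library, by group. The Pdlim1 share was 11.2% in P14 CTRL and 19.5% in P14 KO on average, and Ldb3 held 50.9% to 60.9% in every group mean.

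CTRL CMs alone showed how the members changed with age. From P14 to P90, Tcap rose and Pdlim1 fell, the 2 of 10 members called, where 29.3% of 12294 genes were called (14.5% higher and 14.9% lower). Tcap went from 1121 ± 23.3 to 1706 ± 110 CPM (SD, n = 3), with no overlap, a log2 fold change of 0.61 ± 0.10 SE and an adjusted p of 0.00310 by edgeR. Pdlim1 went from 86.4 ± 9.01 to 61.6 ± 2.12 CPM, also without overlap (-0.49 ± 0.12 SE, edgeR, adjusted p = 0.0147). Without P14 CTRL replicate 1, or without any 1 of the P90 CTRL libraries, Pdlim1 was not called (adjusted p = 0.0501 to 0.0631). Actn2 and Ldb3 did not overlap between stages either, with log2 differences of -0.27 ± 0.10 SE and 0.27 ± 0.11 SE (edgeR, adjusted p = 0.0690 and 0.0985), where 44.9% of all genes did not overlap (22.1% higher and 22.8% lower). For Csrp3 and Pdlim5, the log2 differences were -0.01 and 0.00, with 95% intervals from -0.28 to 0.26 and from -0.45 to 0.45. The 2 stages were deposited as separate tables, and endothelial markers (4 of 5) and fibroblast markers (2 of 4 tested) fell with age in the same libraries, while 3 of 4 atrial markers rose. Stage and any difference in handling cannot be told apart.

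Set in order over the 4 groups, Tcap ran from P90 KO (2649 ± 609 CPM) through P90 CTRL and P14 KO to P14 CTRL, with no overlap between neighbours. Actn2 ran from P14 KO (6500.4 ± 301 CPM) through P14 CTRL and P90 KO to P90 CTRL (4457 ± 241 CPM), also with none. Csrp3 was highest in P14 KO, then P90 KO (2345 ± 49.3 CPM), with the overlapping CTRL groups below. Pdlim1 was highest in P14 KO (135 ± 6.67 CPM), then P14 CTRL, with the overlapping P90 groups below. For Pdlim7 the CTRL groups overlapped each other at 56.2 ± 20.2 and 49.0 ± 7.93 CPM and the KO groups overlapped each other at 21.1 ± 9.62 and 23.3 ± 2.56 CPM, with a gap between the pairs. For Ldb3 only P14 KO (1412 ± 108 CPM) stood apart, below the other groups. All neighbours overlapped for Myoz2, Nebl, Pdlim3 and Pdlim5.

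A list of 30 further Z-disc genes and family relatives was read beside the members. In neonatal KO, 9 of the 28 tested were called, 6 higher and 3 lower, beside 8.59% of all genes, with a median log2 fold change of 0.20. The 6 that rose were Synm (synemin, an intermediate filament protein, 1.25 ± 0.27 SE, adjusted p = 0.0276), Xirp2 (an actin-binding Xin repeat protein, 1.08 ± 0.17 SE, adjusted p = 0.0132), Fhl1 (a small protein of LIM domains, 0.88 ± 0.16 SE, adjusted p = 0.0189), Synpo2l (0.81 ± 0.14 SE, adjusted p = 0.0172), Flnc (muscle filamin, 0.80 ± 0.16 SE, adjusted p = 0.0214) and Nrap (a nebulin relative of myofibril assembly, 0.75 ± 0.13 SE, adjusted p = 0.0153), all by edgeR on the log2 scale. Nrap went from 589 ± 37.1 to 989 ± 118 CPM (SD, n = 3). The 3 that fell were Csrp2, the smooth muscle relative of Csrp3 (-1.10 ± 0.13 SE, adjusted p = 0.00699), Pdlim4 (-0.55 ± 0.13 SE, adjusted p = 0.0397) and Lmcd1, a LIM and cysteine-rich protein (-0.50 ± 0.12 SE, adjusted p = 0.0378). Csrp2 thus moved opposite to Csrp3, from 41.2 ± 4.65 to 19.2 ± 1.74 CPM. Pdlim4 was not called without any 1 of the 6 libraries, Lmcd1 without P14 CTRL replicate 1 or 3 or any 1 KO library, Fhl1 without P14 CTRL replicate 1 or any 1 KO library, and Synm, Synpo2l, Flnc and Nrap without any 1 KO library. Xirp2 was not called without P14 KO replicate 1 or 3. Csrp2 was called in each of these fits. Pdlim4 and Lmcd1 were also not called with the gene length correction (adjusted p = 0.0698 and 0.0508) or in the fit of all 12 samples (adjusted p = 0.0588 and 0.0563).

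In adult KO, 0 of the 26 tested were called by edgeR, beside 0.390% of all genes, with 7 at an unadjusted p under 0.05, where 16.2% of all genes were, and DESeq2 called 0, beside 2.87%. At these shares a count of 0 says little of the list. The log2 differences of the 9 genes ran from -0.43 (Flnc) to 0.28 (Csrp2). Of the relatives of the members, none of the others was called after Srf deletion. Neonatal and adult log2 differences were 0.17 and -0.17 for Actn1, 0.07 and 0.11 for Actn4, 0.21 and 0.37 for Csrp1, 0.50 and 0.08 for Neb, and 0.19 and 0.18 for Lasp1. Myoz1 (-0.76) and Pdlim2 (0.41) were tested at P14 alone and Myoz3 at neither stage, for want of counts. In CTRL CMs 14 of 28 genes of the list changed between P14 and P90, 8 higher and 6 lower, beside 29.3% of all genes (14.5% higher and 14.9% lower). The list's median log2 difference was 0.18, from -3.99 for Myoz1, at only 0.88 CPM in P14 CTRL, to 3.85 for Myot. The non-muscle or smooth muscle relatives Actn1 (-0.73), Actn4 (-1.14), Csrp1 (-1.05) and Csrp2 (-2.44) all fell with age on the log2 scale. In the same libraries 4 of 5 endothelial markers (median log2 difference -0.90) and 2 of 4 fibroblast markers (median -1.41) were also lower at P90, and their part in the falls was not tested.

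**Figure D5:**
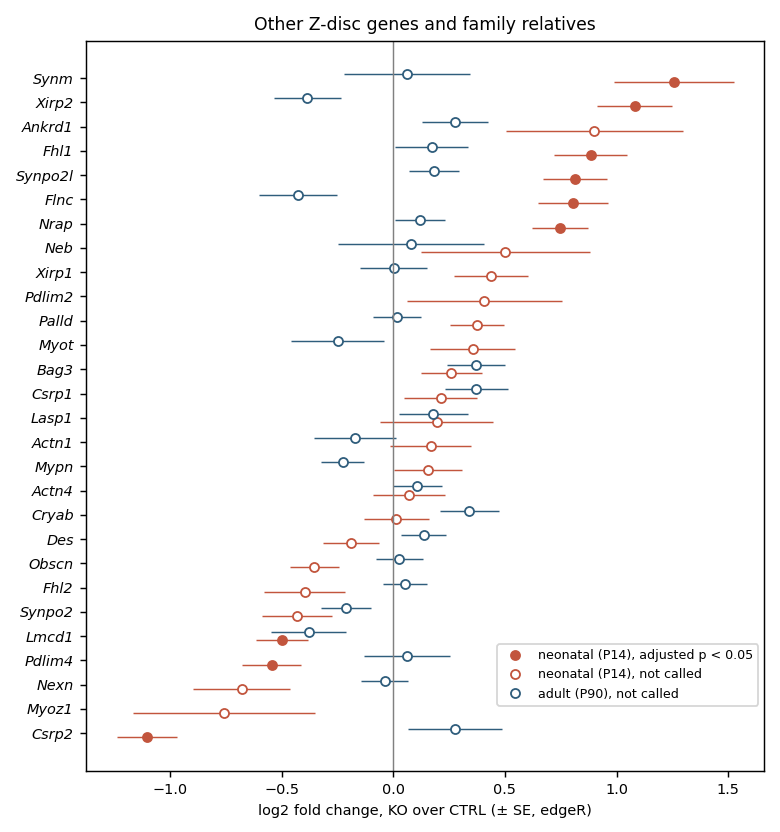
Log2 fold change of KO over CTRL (x axis, bars ± SE, edgeR) for the genes of the further Z-disc list that could be tested, in neonatal and adult CMs. Of these, 9 were called in neonatal KO (filled points) and 0 in adult KO.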

How the data were processed

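The study's authors sorted reporter-positive CMs after collagenase perfusion, amplified cDNA from low RNA input with SMART-Seq v4, made Nextera XT libraries and sequenced them from one end. Per the submitters' processing notes, CASAVA 1.8, STAR 2.5.3a and featureCounts of Subread 1.5.2 were used with mm10. The deposited values are raw counts per gene, in 1 table per stage. How strand and multiply mapping reads were handled is not given in the sources used here. No molecular identifiers were used, so a floor of 3 counts (0.130 to 0.308 CPM) covers counting error only.

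Titles gave the groups, and hearts were the replicates. In R 4.3.3, genes passing filterByExpr were TMM-scaled and compared with edgeR 4.0.16 (quasi-likelihood F-test, Benjamini-Hochberg over all genes tested, adjusted p under 0.05), each stage on its own 6 samples and the interaction on all 12. The SE is the log2 fold change over the root of F. The 95% intervals use edgeR's total degrees of freedom, the residual ones plus the prior ones that it estimates from all genes. These were 8.36 in the neonatal, 11 in the adult, 13.3 in the interaction and 9.08 in the CTRL stage fit. DESeq2 (run here as version 1.42.0; the authors also used DESeq2), RLE scaling, no filter, the replicate number as a block, a correction for gene length (lowess, span 0.3), a fit of all 12 samples and leaving out each library were alternatives. The scripts were first tested on simulated data. Members and lists were chosen with earlier results of these data known. Named are the members, Srf, their family relatives, called genes of the further Z-disc list (at most 12) and the 2 genes nearest to each member in log2(CPM + 1) over the 12 samples. Libraries of a group differed by more than counting noise (chi-square per degree of freedom 10.3 to 55.4), so none was counted as a repeat. Promoters came from RefSeq, and no p-value was computed for any list.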

Additional observations from a re-analysis of the deposited data

Results flagged for a closer look

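No group had the 4 samples that a check for outlying samples needs. By the interaction test, the effect of Srf deletion differed between the stages in 3 of the 28 tested genes of the further Z-disc list. None of them was among the 10 members, and 1.78% of all 12841 genes were called. The time from injection to isolation differed between the stages as well. Xirp2 differed by 1.47 ± 0.25 SE on the log2 scale, neonatal minus adult (edgeR, adjusted p = 0.0210). It went from 140, 118 and 154 CPM in P14 CTRL to 325, 228 and 321 CPM in KO, and from 226, 247 and 306 to 164, 190 and 240 CPM at P90. Flnc differed by 1.24 ± 0.26 SE (adjusted p = 0.0399), with 406, 300.4 and 428 against 735, 611.5 and 638 CPM at P14 and 698, 527 and 755 against 370, 499 and 602 CPM at P90. Csrp2 differed by -1.37 ± 0.26 SE (adjusted p = 0.0252), with 36.0, 42.4 and 45.0 against 20.7, 19.6 and 17.3 CPM at P14 and 8.20, 8.15 and 6.33 against 10.7, 10.1 and 6.35 CPM at P90. The P90 groups of all 3 genes overlapped. Each of these calls was lost in some fits with 1 library left out, with adjusted p-values up to 0.0719 for Xirp2, 0.108 for Flnc and 0.0905 for Csrp2, and that of Csrp2 also with the gene length correction (adjusted p = 0.0530).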

How the results depend on the processing

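Of 570 alternative values for single members, 497 kept their direction and their side of the threshold, 26 passed it anew, 20 no longer passed it and 27 changed sign. With 2 members called in neonatal KO, DESeq2 and all 12 samples together gave 4, the gene length correction with the replicate block gave 5, and leaving out 1 library gave 0 to 2. With 2 called in adult KO, DESeq2 and no filter on low counts gave 4, all 12 samples gave 0, and leaving out 1 library gave 0 to 3. The interaction, with 0, gave 1 (Pdlim1) with DESeq2 and with the gene length correction and replicate block. The CTRL stages, with 2, gave 4 in all 12 samples and 1 to 4 without 1 library. Over all genes, the neonatal 1078 became 1787 with DESeq2 and 1411 with the length correction and replicate block. It became 2088 with all 12 samples and 111 to 1004 without 1 library. The adult 46 became 312 with DESeq2, 701 with no filter, 85 with the length correction, 3 with all 12 samples and 6 to 51 without 1 library. The interaction's 228 became 894 with DESeq2, 474 with no filter, 309 with the length correction and block and 4 to 377 without 1 library. The 3607 of the CTRL stages became 2067 to 4768.

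The replicate numbers were not taken to pair the samples: deviations of same-numbered KO and CTRL samples correlated at 0.047, 0.148 and 0.360 at P14 and at 0.181, -0.000341 and 0.054 at P90, and not every sample correlated best with its own number. With the replicate number as a block, 4 members were called in neonatal KO (beside 12.2% of all genes) and 4 in adult KO (beside 5.55%), 655 genes in adult KO (205 with the length correction) and 687 for the interaction, with 1529 in neonatal KO. Pdlim3 (adjusted p = 0.0235) and Pdlim7 (adjusted p = 0.00369) were then called in neonatal KO, and Csrp3 and Tcap in adult KO (adjusted p = 0.0219 and 0.00633). In the further Z-disc list the block gave 1 higher and 2 lower in adult KO. Pdlim4 in neonatal KO was not called with the length correction and the block (adjusted p = 0.0635).

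The Tcap interaction, at -0.28, became 0.056 with the length correction and 0.069 with the block as well. Pdlim5 between the CTRL stages became 0.0043 with DESeq2, 0.0010 with no filter, 0.035 with the block or the length correction and 0.089 with both. Without 1 library, neonatal values ran from -0.0524 to 0.27 for Myoz2 and -0.17 to 0.14 for Nebl, and the adult Nebl value from -0.0673 to 0.14. Interaction values ran from -0.12 to 0.0135 for Ldb3, -0.20 to 0.23 for Pdlim5 and -0.19 to 0.13 for Nebl. CTRL stage values ran from -0.11 to 0.0501 for Csrp3, -0.16 to 0.26 for Pdlim5 and -0.20 to 0.10 for Nebl. The cause was not tested.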
